A study of Rattus norvegicus with 3 samples.

Results

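The genes described here encode the working parts of the lysosome. They were taken as a list of 42 rat genes, which held 22 lysosomal hydrolases and their activators, 7 proteins of the lysosomal membrane and of cholesterol export, 12 ubiquitous subunits of the vacuolar proton pump (V-ATPase) and the transcription factor Tfeb. Array probes were assigned to them through the RefSeq accession of each probe, and only genes whose probe exceeded background clearly in green, or in red, on all 3 arrays were tested. Of the 42 genes, 41 had a probe and 38 were tested, among 14179 genes tested in all.

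Kidney RNA from the non-tumor region was compared between male Sprague-Dawley rats that drank water with 200 ppm GABA (G200) and male Sprague-Dawley rats of the negative control, which received 0 ppm GABA. Per the methods, rats bought at 5 weeks of age had 1 week of acclimation before 3 weeks of GABA. The labels give 3 rats per group, while the tables of the study refer to 8 per group, and whether RNA was pooled is not given in the sources used here. Each of 3 Agilent arrays carried Cy3-labelled control RNA (green) and Cy5-labelled G200 RNA (red), and 0 arrays had exchanged dyes, so that a dye effect and an effect of GABA cannot be told apart.

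Lysosomes degrade proteins, glycans and lipids that arrive by endocytosis or autophagy, and their enzymes work in the acid interior that the V-ATPase maintains. Proximal tubule cells of the kidney are rich in lysosomes, because they take up filtered proteins through the receptors megalin and cubilin and break them down. TFEB and its relatives raise the transcription of many lysosomal genes by binding an E-box, while intercalated cells of the collecting duct place the V-ATPase in the plasma membrane to secrete acid.

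Values are log2 ratios of G200 over control after loess normalization between the dyes, so a value above 0 means a higher level in G200, and levels are normalized intensities in arbitrary units. A level is compared between samples for the same probe, and intensities of different probes are only summed over marker lists, where the gene with the brightest probe is named. Over 1126 probes spotted at least 5 times, the SD of the log2 level between arrays was 0.032 in green, where the spread of replicate spots alone gives 0.039, and 0.10 in red. For this reason all 3 green channels count as 1 control sample here, although not every gene was steady in control. Of all genes, 3.44% had an SD over 0.25 in control and 16.2% in G200, and control levels of Alb, the liver gene for albumin, were 22254, 54719 and 62426. The limma test set the mean ratio of the 3 G200 samples against 0, and the spread between control rats is left out of it. Among the 38 lysosomal genes, the median SD of the level was 0.068 in control and 0.19 in G200. No spot was saturated, and the 3 arrays limit the precision of every value.

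Lysosomal genes were more often higher than lower in G200, and in the main processing, loess with offset 50 on all 3 arrays, the means were below 2-fold. With other settings some exceeded it, such as Lgmn at 1.03 without replicate 2 and Ctsh at 1.57 with median centring. Of the 38 genes, 29 had a positive and 9 a negative mean log2 ratio. At an adjusted p under 0.05 (limma, Benjamini-Hochberg over all genes), 13 were higher (34.2%, against 11.6% of all genes) and 4 were lower (10.5%, against 25.9% of all genes), and the remaining 21 did not pass. The median log2 ratio was 0.13 in the lysosomal genes and -0.049 in all genes. On replicates 1, 2 and 3 it was 0.27, 0.056 and 0.18 in the lysosomal genes. Replicate 2 lay nearest to the control, and it gave the lowest ratio of the 3 arrays in 23 of the 38 lysosomal genes (60.5%) and in 32.7% of all genes. Among the 13 genes called higher, replicate 2 was the lowest array in 12. In bulk tissue, more cells of a type and more RNA per cell cannot be told apart.

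The direction of a ratio depended on the scaling between the dyes. When loess was replaced by median centring the median of all genes was 0.27, and it was 0.62 when the dyes were not normalized, and 80.0% and 96.3% of all called genes were then higher, against 30.8% with loess. Without loess the ratio also rose with the brightness of the probe. The tested lysosomal probes were bright, with 17 in group 3 and 14 in group 4 of 4 equal groups ordered by intensity. In groups 3 and 4, 16.9% and 17.3% of all genes were called higher, and the median of all genes was -0.027 and -0.070 with loess, 0.50 and 0.65 with median centring, and 0.85 and 1.00 with no normalization. Set against the median of all genes in the same brightness group, 29 of the 38 lysosomal genes lay above it with loess and 28 with either of the other scalings, by a median of 0.19 and 0.22.

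**Figure D1:**
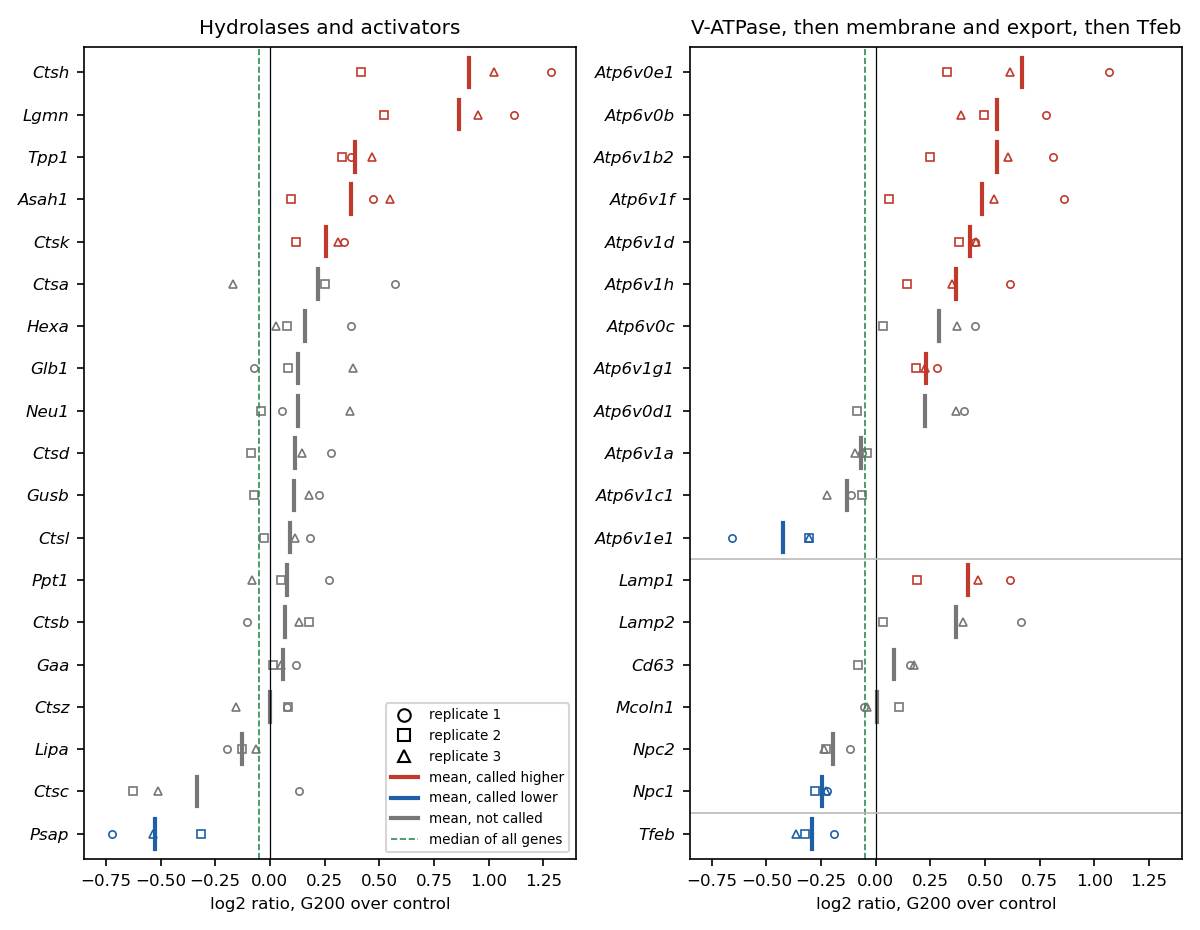
The log2 ratio of G200 over control (horizontal axis) is shown for each of the 38 tested lysosomal genes on the 3 arrays (open symbols) with the mean of the 3 as a bar, coloured by the call at an adjusted p under 0.05. Of the genes, 13 were called higher and 4 lower with loess, replicate 2 lay lowest in 12 of the 13 called higher, and with median centring the means of 3 of the 4 called lower turned positive, while all 4 stayed below equally bright genes.

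The promoters of several lysosomal genes hold the E-box that the TFEB family binds, and they are shown because the list contains both Tfeb and many of its known targets. Promoter windows (250 bases before to 50 after the start, 300 bases, RefSeq, GRCr8) were matched for 34 of the 42 genes. There was no entry for Ctsb, Hexa, Psap, Ppt1, Asah1, Atp6v1b2, Atp6v1c1 and Atp6v1h. The letters CACGTG, which read the same on both strands, occurred in 8 of the 34 windows (23.5%) and in 2148 of all 33469 windows in the table (6.42%). The longer form TCACGTGA, which contains CACGTG and also reads the same on both strands, occurred in 5 of the 34 (14.7%) and in 0.777% of all windows. The 8 windows with CACGTG belong to Ctsd, Gaa, Glb1, Lamp1, Cd63, Mcoln1, Atp6v0d1 and Atp6v0e1. Only Lamp1 and Atp6v0e1 of these 8 genes were called higher in G200, and the other 6 were not called. Of the 10 genes called higher that had a window, 2 held the letters, and of the 3 called lower none did. The window of Atp6v0b, among these 10 and the 34, reads as coding sequence followed by a splice donor. Its lack of the letters thus says nothing about the promoter, and whether the other windows cover the promoter in use was not tested. The windows of 4 genes are printed here. Lamp1 (chr16:83075014-83075313, minus strand) held CACGTG 5 times, Atp6v0e1 (chr10:17007107-17007406, minus strand) held it once, 24 bases after the start, Ctsd (chr1:206968772-206969071, minus strand) held it 2 times, and Ctsh (chr8:99488506-99488805, plus strand), which had the largest ratio of all the lysosomal genes with loess at offset 50, did not hold it. Capitals mark CACGTG.
Lamp1: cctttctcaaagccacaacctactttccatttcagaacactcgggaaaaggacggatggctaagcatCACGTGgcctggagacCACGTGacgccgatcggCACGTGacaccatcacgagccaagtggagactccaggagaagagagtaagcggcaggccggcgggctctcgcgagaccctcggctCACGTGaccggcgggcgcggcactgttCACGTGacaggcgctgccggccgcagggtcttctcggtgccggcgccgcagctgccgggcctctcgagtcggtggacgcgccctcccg
Atp6v0e1: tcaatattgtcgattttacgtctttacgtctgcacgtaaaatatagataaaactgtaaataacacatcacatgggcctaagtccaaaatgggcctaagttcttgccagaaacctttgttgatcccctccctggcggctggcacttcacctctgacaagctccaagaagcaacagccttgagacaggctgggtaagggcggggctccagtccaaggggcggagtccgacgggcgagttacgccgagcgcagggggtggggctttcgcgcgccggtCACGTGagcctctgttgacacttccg
Ctsd: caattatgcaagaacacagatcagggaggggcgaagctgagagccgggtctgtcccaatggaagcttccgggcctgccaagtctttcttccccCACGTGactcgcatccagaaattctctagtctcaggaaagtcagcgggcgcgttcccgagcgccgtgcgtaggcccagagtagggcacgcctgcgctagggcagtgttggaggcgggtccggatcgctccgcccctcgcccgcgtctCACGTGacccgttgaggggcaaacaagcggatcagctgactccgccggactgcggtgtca
Ctsh: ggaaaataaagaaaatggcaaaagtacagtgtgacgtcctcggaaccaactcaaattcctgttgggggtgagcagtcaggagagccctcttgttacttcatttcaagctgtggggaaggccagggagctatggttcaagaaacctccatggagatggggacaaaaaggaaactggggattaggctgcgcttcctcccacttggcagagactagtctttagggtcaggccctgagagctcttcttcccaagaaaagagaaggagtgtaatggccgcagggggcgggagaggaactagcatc
A match of letters is a description of the window, and the binding of TFEB was not measured.

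With loess, among the hydrolases and their activators, proteases carried the largest rises, the glycosidases lay near 0, and 1 activator fell. Of the 22 genes of the class, 19 were tested, 16 with a positive mean. After adjustment 5 were higher (26.3%, against 11.6% of all genes) and 1 was lower (5.26%, against 25.9% of all genes). The class median was 0.11 (0.22, 0.078 and 0.13 on replicates 1, 2 and 3). With median centring the class median was 0.63 and with no normalization 0.99. Relative to equally bright genes the class median was 0.20 with both, and 0.16 with loess.

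Ctsh encodes cathepsin H, a lysosomal aminopeptidase. Its control levels were 589, 507 and 515 on replicates 1, 2 and 3, and its G200 levels were 1437, 677 and 1045. All 3 G200 samples lay above all 3 control channels, with replicate 2 closest to them. Such a lack of overlap is described here for called genes only, and its share over all genes was not counted. Of all 14179 genes, 9683 had ratios of the same sign on all 3 arrays. The log2 ratios were 1.29, 0.42 and 1.02, averaging 0.91 ± 0.45 (SD, n = 3; adjusted p = 0.00845, limma), a 1.88-fold difference. Lgmn encodes legumain, the asparaginyl endopeptidase that matures other cathepsins and is abundant in proximal tubule. Its levels were 296, 278 and 276 in control and 641, 398 and 535 in G200, again without overlap. The mean log2 ratio of Lgmn was 0.86 ± 0.31 (SD, n = 3; adjusted p = 0.00402, limma), or 1.82-fold. Lgmn passed the threshold in 13 of 15 alternatives and Ctsh in 12.

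The other proteases called higher changed less. Tpp1, which removes tripeptides from the amino end of proteins, had ratios of 0.37, 0.33 and 0.47, a narrow range, averaging 0.39 ± 0.072 (SD, n = 3; adjusted p = 0.00789, limma). Ctsk, the collagen-degrading cathepsin K, had ratios of 0.34, 0.12 and 0.31, with a mean of 0.26 (adjusted p = 0.0389, limma). The call was lost without replicate 1, without replicate 3 or with offset 0, and the mean was 0.54 with the authors' log ratio. The remaining 6 proteases did not pass the threshold. Their means ran from -0.34 in Ctsc, the dipeptidyl peptidase that activates serine proteases, to 0.22 in Ctsa, a carboxypeptidase that also protects other lysosomal enzymes. The arrays disagreed in both of these genes. Ctsc had ratios of 0.13, -0.63 and -0.51, and without replicate 1 it passed the threshold with a mean of -0.57. Ctsa had ratios of 0.57, 0.25 and -0.17. The endopeptidases Ctsb, Ctsd and Ctsl, which carry out much of the bulk digestion of proteins, had means of 0.069, 0.11 and 0.091, and Ctsz, a carboxypeptidase, had 0.0020. In each of these 4 genes, 1 of the 3 arrays had a negative ratio. Ctsz was well above background in red on only 2 of the 3 arrays, which limits its ratio.

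The glycosidases and sulfatases digest glycogen, glycolipids and glycosaminoglycans. Of the 5 tested enzymes, 0 passed the adjusted threshold in limma and 0 had an unadjusted p under 0.05, while 2 were called higher with median centring and 5 with no normalization. Of all 14179 genes, 4990 and 8010 were called higher with those scalings. With loess their mean ratios were positive but small, from 0.060 in Gaa, which degrades glycogen, to 0.16 in Hexa, a subunit of beta-hexosaminidase. Glb1, Neu1 and Gusb lay between these values at 0.13, 0.13 and 0.11. Without replicate 3 Glb1 and Neu1 had 0.0047 and 0.0081, while Hexa had 0.35 with offset 0 and 0.60 with the authors' log ratio. Gla and Galns were well above background in neither colour on all 3 arrays and were not tested, and no probe was matched to Naglu.

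Lipid breakdown was divided. Psap encodes prosaposin, the precursor of the 4 saposins that present sphingolipids to their hydrolases, and it fell. Its control levels were 771, 781 and 765, and its G200 levels were 468, 627 and 528, so that every G200 sample lay below every control channel. The log2 ratios of Psap were -0.72, -0.32 and -0.54, averaging -0.52 ± 0.20 (SD, n = 3; adjusted p = 0.00827, limma). The sign turned to 0.12 with median centring, where Psap lay 0.53 below the median of equally bright genes, against 0.45 below it with loess. Asah1, the acid ceramidase that acts on a product of this pathway, rose, with ratios of 0.47, 0.098 and 0.55 and a mean of 0.37 ± 0.24 (SD, n = 3; adjusted p = 0.0324, limma). Its mean was 0.70 with offset 0, 0.50 with no background correction and 1.16 with the authors' log ratio, which differs in background and dye correction, and the call was lost without replicate 1 or without replicate 3. Ppt1, which removes palmitate from proteins, and Lipa, the acid lipase for cholesteryl esters, had means of 0.080 and -0.13 and did not pass the threshold.

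The membrane glycoproteins line the lysosome, and the export proteins move cholesterol out of it. Of the 7 membrane and export genes, 6 were tested, 1 was higher and 1 lower (16.7% each). Of all genes, 11.6% were higher and 25.9% lower, and in brightness groups 3 and 4, which held these 6 probes, 16.9% and 17.3% were higher. The class median was 0.044 (0.052, -0.024 and 0.068 on replicates 1, 2 and 3). With median centring and with no normalization it was 0.72 and 1.07. Relative to equally bright genes it was 0.080 with both, with 3 genes above and 3 below, and 0.11 with loess. Lamp1, a heavily glycosylated protein that lines the lysosomal membrane, had levels of 483, 428 and 441 in control and 740, 488 and 611 in G200. Its ratios were 0.61, 0.19 and 0.47, averaging 0.42 ± 0.22 (SD, n = 3; adjusted p = 0.0177, limma). The related Lamp2, which also serves chaperone-mediated autophagy, had similar ratios of 0.67, 0.032 and 0.40 and missed the threshold with a mean of 0.37 (adjusted p = 0.0590, limma). It was called higher in 5 of 15 alternatives, one of them without replicate 2. Cd63, a tetraspanin of late endosomes and lysosomes, had a mean of 0.085.

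Npc1 and Npc2 together move cholesterol out of the lysosome, NPC2 as a soluble carrier and NPC1 in the membrane. Both had a negative ratio on every array. Npc1 had ratios of -0.22, -0.28 and -0.23, the smallest SD of the 4 genes called lower, averaging -0.24 ± 0.030 (SD, n = 3; adjusted p = 0.0285, limma). A dimmer second probe of Npc1 gave -0.022, -0.14 and 0.011, and with the mean of both probes the call was lost. The call of Npc1 was also lost when any 1 array was left out, with offset 0 and with the authors' log ratio. Npc2 had ratios of -0.12, -0.23 and -0.24 and did not pass (adjusted p = 0.0635, limma). With median centring both genes turned positive, to 0.31 and 0.32, yet each stayed 0.19 below the median of equally bright genes. Mcoln1, a calcium channel of the lysosomal membrane, had a mean of 0.0040. Scarb2, a membrane receptor that sorts an enzyme to lysosomes, was not well above background in either colour on all 3 arrays.

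**Figure D2:**
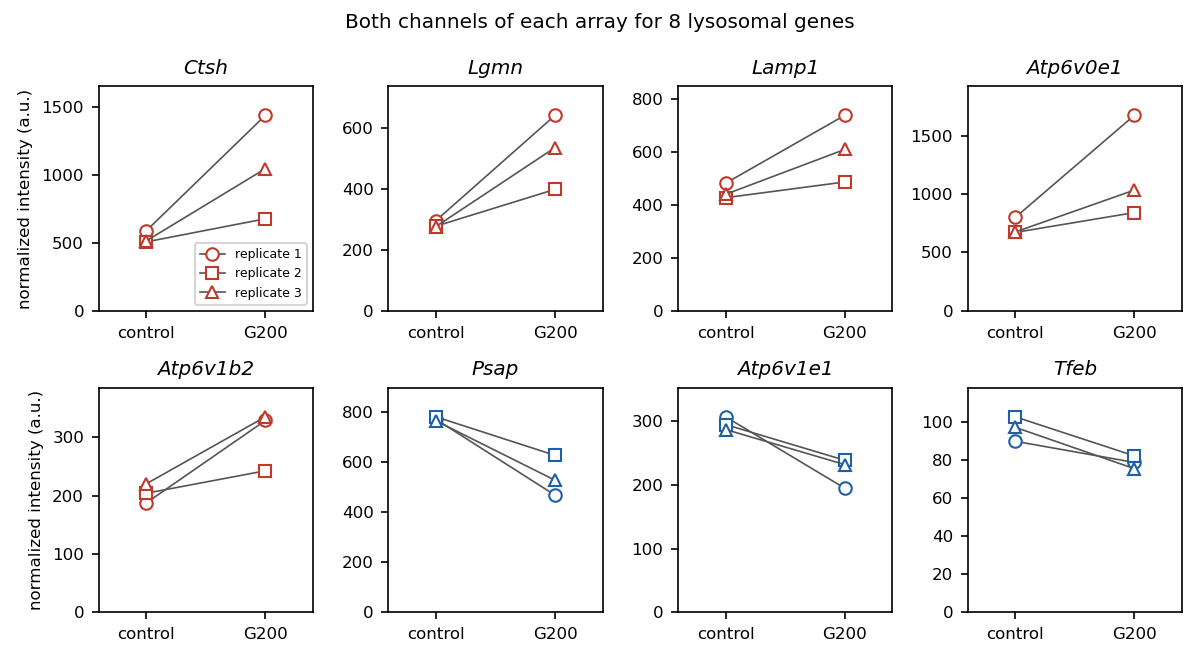
Normalized intensity in arbitrary units (vertical axis, from 0, a separate scale for each gene) is shown in the control and G200 channels of the same array, joined by a line for each of the 3 replicates, for 8 lysosomal genes. With loess normalization the control channels lie close together, all 3 G200 samples lie above them for Ctsh, Lgmn, Lamp1, Atp6v0e1 and Atp6v1b2, and all 3 lie below them for Psap, Atp6v1e1 and Tfeb. All 8 were picked from the called genes, and the share of all genes without overlap was not counted.

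The ubiquitous V-ATPase subunits had the highest median of the 3 classes, while 10 tested subunits of the pump outside this class, described below, had a median of 0.032. The pump consists of the V0 sector, a proton channel in the membrane, and the V1 sector, which hydrolyses ATP in the cytosol. All 12 listed subunits were tested, and 9 had a positive mean. Of these 12, 7 were called higher (58.3%, against 11.6% of all genes) and 1 lower (8.33%, against 25.9% of all genes). In brightness groups 3 and 4, which held these 12 probes, 16.9% and 17.3% of all genes were called higher. The class median was 0.33, with 0.45, 0.10 and 0.37 on replicates 1, 2 and 3, against 0.11 for the hydrolases and 0.044 for the membrane and export genes. It was 0.90 with median centring and 1.25 with no normalization. Relative to equally bright genes it was 0.33 with both, and 0.38 with loess. The V-ATPase median was the highest of the 3 classes in each of the 15 alternatives, although those that change only the test leave the medians as they are. The difference between the classes was not tested.

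Each of the 4 ubiquitous V0 subunits in the list had a positive mean, and 2 were called higher (50%, against 11.6% of all genes). Atp6v0e1, a small subunit of the sector, had levels of 800, 672 and 676 in control and 1674, 842 and 1034 in G200. All G200 samples lay above the control channels, replicate 1 by the most. The log2 ratios were 1.06, 0.33 and 0.61, averaging 0.67 ± 0.37 (SD, n = 3; adjusted p = 0.0137, limma), or 1.59-fold. Atp6v0b, which encodes one of the proteolipids that form the rotating ring, had levels of 346, 360 and 366 in control and 594, 508 and 479 in G200. Its ratios of 0.78, 0.50 and 0.39 gave a mean of 0.55 ± 0.20 (SD, n = 3; adjusted p = 0.00681, limma), and it passed the threshold in 13 of 15 alternatives. The proteolipid gene Atp6v0c had ratios of 0.45, 0.034 and 0.37 (adjusted p = 0.0600, limma), and Atp6v0d1, which links the ring to the central stalk, had 0.40, -0.086 and 0.37 (adjusted p = 0.148, limma). In both of these genes replicate 2 was near 0.

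The V1 sector was mixed, with 5 of 8 subunits called higher and 1 lower (62.5% and 12.5%, against 11.6% and 25.9% of all genes). Atp6v1b2, the ATP-binding B subunit, had levels of 188, 204 and 221 in control and 329, 243 and 335 in G200, and its mean ratio was 0.55 ± 0.28 (SD, n = 3; adjusted p = 0.0130, limma). Atp6v1d, a subunit of the central stalk, changed by nearly the same amount on every array, with ratios of 0.45, 0.38 and 0.46 and a mean of 0.43 ± 0.042 (SD, n = 3; adjusted p = 0.00505, limma). Atp6v1f, also of the stalk, had ratios of 0.86, 0.059 and 0.54 (mean 0.49; adjusted p = 0.0443, limma). Without replicate 1 its mean was 0.30 and the call was lost, and it was called in 8 of 15 alternatives. Atp6v1h, which couples ATP hydrolysis to proton transport, had ratios of 0.61, 0.14 and 0.35 (mean 0.37; adjusted p = 0.0320, limma). Atp6v1g1, of the peripheral stalk, had ratios of 0.28, 0.19 and 0.23 (mean 0.23; adjusted p = 0.0355, limma). Atp6v1h and Atp6v1g1 also lost the call without replicate 1.

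Atp6v1e1 fell, although its product pairs with the G subunit in the same peripheral stalk. This probe was spotted 10 times on each array. Its levels were 306, 294 and 286 in control and 194, 238 and 231 in G200, without overlap. The ratios were -0.65, -0.30 and -0.31, averaging -0.42 ± 0.20 (SD, n = 3; adjusted p = 0.0159, limma). With median centring the mean was 0.094, which is 0.41 below the median of equally bright genes. Atp6v1a, the catalytic A subunit, was read by 2 probes with means of -0.066 and -0.10, and Atp6v1c1 had a mean of -0.13. Neither passed the threshold, and both turned positive with median centring (0.52 and 0.51), 0.021 above and 0.14 below the median of equally bright genes.

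Tfeb itself was lower in G200. The levels of its dim probe were 89.8, 103 and 97.1 in control and 78.7, 82.1 and 75.4 in G200. Every G200 sample lay below every control channel. The log2 ratios were -0.19, -0.32 and -0.36, averaging -0.29 ± 0.091 (SD, n = 3; adjusted p = 0.0214, limma). It was -0.28 with median centring and 0.075 with no normalization, 0.19 below the median of equally bright genes in both, and 0.23 below it with loess. Its mean was -0.71 with offset 0, -0.35 with no background correction and -0.62 with the authors' log ratio, and the call was lost without replicate 2 or without replicate 3. Tfeb is activated mainly by dephosphorylation and entry into the nucleus, which these arrays do not measure.

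**Figure D3:**
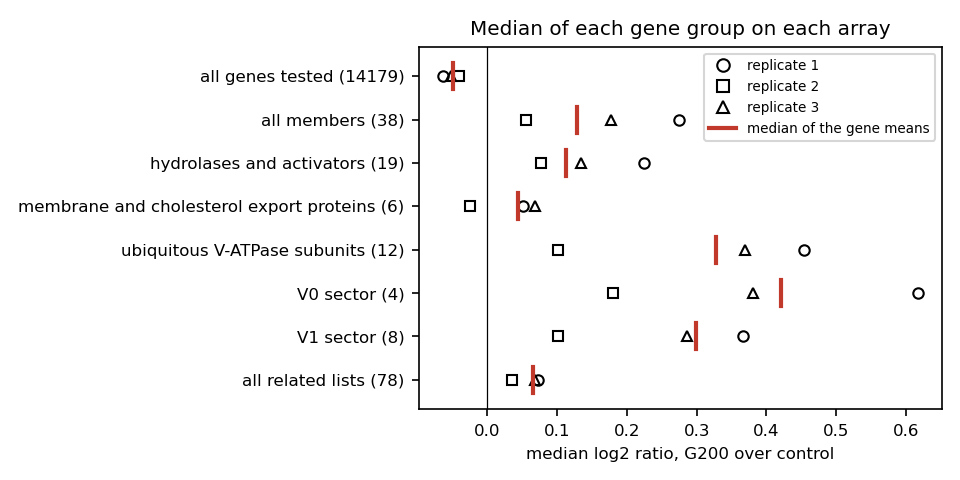
The median log2 ratio of G200 over control is shown for groups of genes (number tested in brackets) on each of the 3 arrays (open symbols), with the median of the gene means as a bar. With loess normalization the ubiquitous V-ATPase subunits reach 0.33, the hydrolases 0.11, the membrane and export genes 0.044 and all 14179 genes -0.049. Replicate 2 is the lowest of the arrays in each of these 3 classes.

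The wider set of lysosomal genes held calls in both directions with loess, and with median centring or no normalization 39 or 60 of them were called higher and 0 lower. Of all 14179 genes, 6235 and 8314 were called with those scalings, 4990 and 8010 of them higher. In 6 related lists with 106 genes, 78 genes were tested. With loess 14 were higher (17.9%, against 11.6% of all genes) and 9 were lower (against 25.9% of all genes), and the median was 0.066. Where both colours had to be well above background, 12 of 73 were higher and 7 lower. Of all 12488 genes tested there, 4357 were called, 1447 of them higher. The difference from the 38 genes was not tested. Of 22 other lysosomal hydrolases, 7 were higher and 3 lower (31.8% and 13.6%, against 11.6% and 25.9% of all genes), with a median of 0.18. Ctss, the cathepsin of antigen-presenting cells, had ratios of 0.77, 0.093 and 0.73 (mean 0.53 ± 0.38, SD, n = 3; adjusted p = 0.0296, limma). Scpep1, a serine carboxypeptidase, had ratios of 0.55, 0.33 and 0.71 with a mean of 0.53. Naaa, an acid amidase for N-acylethanolamines, was not well above background in control on any array and is given as a bound. It passed the filter through the red channel alone, is counted among the 7 and the 14, and was not tested where both colours were required. As a mean over the 3 arrays, its level in G200 was at least 1.31-fold that in control. The bound uses, on each array, the higher of the probe's own control level and the lowest green level well above background. It is not a minimum over arrays, since replicate 1 lay below it, and it allows for neither the spread between arrays nor a dye effect. The 3 falls were in Man2b1, the lysosomal alpha-mannosidase (-0.67, -0.48 and -0.49), in Dnase2, an acid nuclease (-0.53, -0.39 and -0.47), and in Acp5, an acid phosphatase (-0.38, -0.36 and -0.37). With median centring these 3 genes had positive values of 0.21, 0.22 and 0.28, which are 0.44, 0.43 and 0.38 below the median of equally bright genes.

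Subunits of the V-ATPase outside the ubiquitous list went both ways. Of 10 tested, 1 was higher and 2 were lower (10% and 20%, against 11.6% and 25.9% of all genes), and the median was 0.032. Both falls were in the large a subunit of V0, which steers the pump to different membranes. Atp6v0a1 had levels of 842, 815 and 877 in control and 444, 592 and 461 in G200, with a mean ratio of -0.77 ± 0.27 (SD, n = 3; adjusted p = 0.00427, limma). Tcirg1, which encodes the a3 form, had levels of 591, 545 and 562 in control and 349, 327 and 304 in G200, averaging -0.79 ± 0.081 (SD, n = 3; adjusted p = 0.00115, limma). With median centring the means were -0.12 and -0.19, and with no normalization they were 0.23 and 0.16, below the median of all genes each time, and neither was called. Atp6v0d2, a form of the d subunit found in kidney and osteoclasts, had ratios of 0.69, 0.58 and 0.31 and a mean of 0.53 ± 0.20 (SD, n = 3; adjusted p = 0.00774, limma). With loess the V0 sector thus held called subunits in both directions.

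Among 10 other lysosomal membrane proteins 2 were higher (20%) and none was lower, with a median of 0.10. Of all genes, 11.6% were higher and 25.9% lower. Laptm4a, a protein of endosomes and lysosomes that spans the membrane several times, had ratios of 1.06, 0.47 and 0.58 and a mean of 0.70 ± 0.31 (SD, n = 3; adjusted p = 0.00775, limma). Cd164, a sialomucin, had a mean of 0.28. Of 13 genes for the sorting of enzymes to lysosomes, 3 were higher (23.1%) and 1 was lower (7.69%), with a median of 0.086. The sorting receptors Sort1 and M6pr had means of 0.39 and 0.32, and the adaptor Gga1, which works with these receptors at the Golgi, had -0.45 (-0.52, -0.30 and -0.53). Of 20 genes for autophagy and fusion, 1 was higher (5%) and 3 were lower (15%), with a median of 0.012. Map1lc3b, which encodes the autophagosome protein LC3B, had a mean of 0.27 and its relative Gabarapl1 had -0.43 ± 0.027 (SD, n = 3; adjusted p = 0.00482, limma), while Ulk1, the kinase gene that starts autophagy, had -0.22 and Uvrag, which acts in vesicle fusion, had -0.28. With median centring Gga1, Gabarapl1, Uvrag and Ulk1 had positive values, which lay 0.44, 0.27, 0.17 and 0.21 below the median of equally bright genes. Of the 3 tested regulators Mitf, Tfe3 and Zkscan3, 0 passed the adjusted threshold in limma and 2 the unadjusted one. Of all 14179 genes, 6962 passed the unadjusted threshold. The means of the 3 regulators were -0.18, -0.23 and -0.051.

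**Figure D4:**
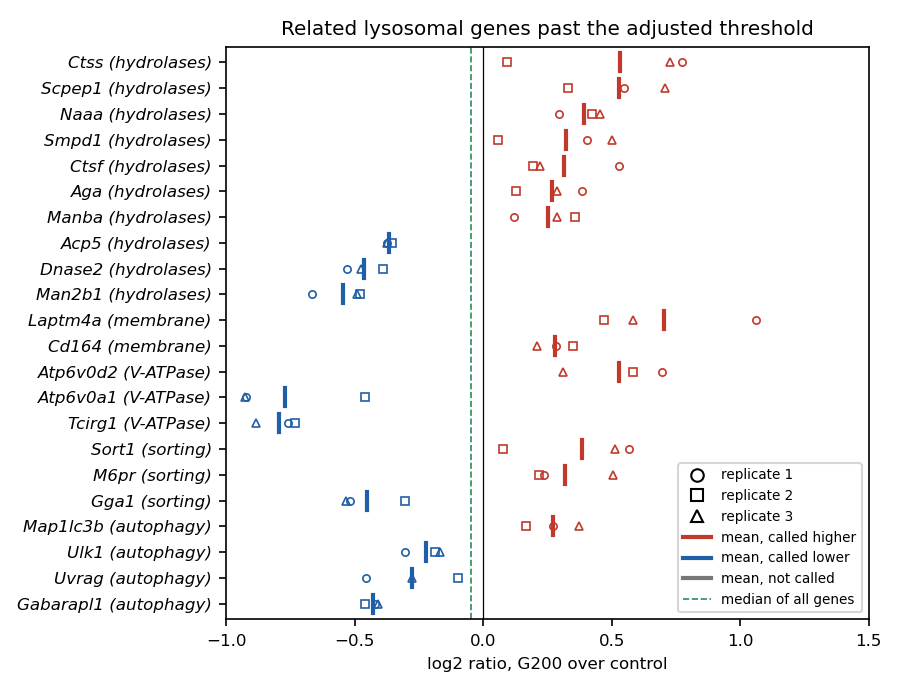
The log2 ratio of G200 over control is shown on the 3 arrays (open symbols) and as a mean (bar) for 13 of the 14 related genes called higher and for the 9 called lower with loess, with their list in brackets. Tcirg1 and Atp6v0a1 lie lowest, and Laptm4a highest. The ratio of Naaa rests on a control signal that was not well above background.

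Cell type markers were read beside these values. The kidney label was checked with markers of its segments, and Slc34a1, Umod and Aqp2 were well above background in both colours on all arrays. Of all genes, 11.6% were called higher and 25.9% lower with loess. Proximal tubule markers, from the segment richest in lysosomes, had 3 of 9 tested genes higher and none lower, with 6 positive and 3 negative means. Their median was 0.26 (0.35, 0.11 and 0.22 on replicates 1, 2 and 3). The receptors Lrp2 (megalin) and Cubn (cubilin) were 2 of the 3 called higher and had means of 0.26 and 0.45. Slc5a2 had the largest mean of the list (0.66), was not called and had ratios of 1.59, 0.16 and 0.22. The summed intensity of the 9 genes was 80151, 65391 and 70484 in control and 83998, 91695 and 79978 in G200, with Slc7a13 the brightest. Macrophage markers had 2 of 11 tested genes higher and 1 lower, with a median of 0.10 (0.19, -0.069 and 0.063). Lyz2, the brightest of them, had a mean of 0.60, and Cd74 had 0.49, while C1qb had -0.43 and Cd68, itself a lysosomal membrane protein, had -0.11. Their summed intensity was 10181, 10276 and 10345 in control and 15420, 11367 and 15214 in G200, and Cd163, Mrc1 and Itgam did not pass the filter on dim probes. Intercalated cell markers had none of 4 genes higher and 1 lower, the anion exchanger gene Slc4a1, the brightest of them (-0.68). The other 3, Foxi1, Aqp6 and Hmx2, had positive means, and the median was 0.093. Slc4a1 alone had levels of 1050, 1017 and 985 in control and 670, 715 and 532 in G200. Their summed intensity was 1899, 1770 and 1740 in control and 1625, 1541 and 1235 in G200, and Slc26a4 did not pass the filter.

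With loess the median of the liver markers lay further from 0 than the mean of any lysosomal gene. All 10 were lower in G200 (against 25.9% of all genes), with means from -4.05 to -1.26. Their median was -3.15, with -1.62, -3.29 and -4.50 on replicates 1, 2 and 3. Their summed intensity was 117696, 147470 and 159400 in control and 31738, 11446 and 4001 in G200, and Ttr was the brightest. Whether liver RNA was present in the control samples, whose channel enters every ratio, was not tested. The part of proximal tubule, macrophage, intercalated or liver transcripts in the lysosomal ratios was not tested.

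The number of calls changed with the arrays, the test and the scaling between the dyes. Without replicate 3, 2 of the 38 lysosomal genes were called, Lgmn (0.82) and Atp6v0b (0.64), and 1611 genes in all. Without replicate 1 it was 12 (8 higher and 4 lower), and without replicate 2 it was 17 (15 higher and 2 lower). With the methods' t-test on both channels none of the 38 was called after Benjamini-Hochberg adjustment and 10 were at the unadjusted threshold, and on the 3 log ratios the counts were 0 and 9. The medians kept their sign in all of these settings. Of all 14179 genes, 4211 reached the unadjusted threshold with both channels and 4475 with the 3 log ratios. Each time this was a larger share than among the 38 lysosomal genes. The V-ATPase median lay between 0.23 and 0.43 when 1 array was left out.

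**Figure D5:**
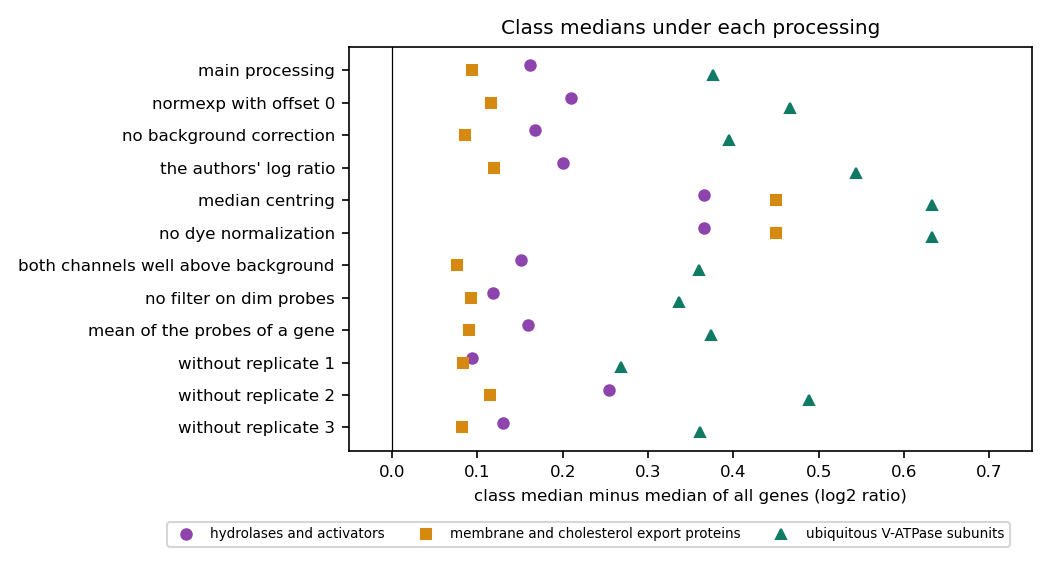
The median log2 ratio of each class minus the median of all genes (horizontal axis) is shown for loess as the main processing and for the alternatives that change the ratios. Every class median lies above that of all genes, the V-ATPase subunits lie highest in each row, and the membrane and export genes lie lowest except with median centring and with no dye normalization, where the hydrolases do. Relative to equally bright genes the membrane and export genes lie lowest with those scalings too.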

How the data were processed

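The deposited intensity values, per the file headers from Feature Extraction 11.5.1.1 (the labels state 9.3.2.1), were median pixel intensities of each spot and its local background that had not been normalized. The plan assumed mean intensities, and medians were used because the files hold no means. The log10 ratios in the same files, red over green, had been corrected for background and dye by the authors with that program, and served only as an alternative.

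In R 4.3.3 with limma 3.58.1, each of the 42877 spots per array other than controls was corrected with normexp (offset 50) and normalized by loess within its array, with control and outlier spots at weight 0. Spots of a probe were averaged, and the brightest kept probe stood for a gene. Green was well above background in 59.8%, 62.7% and 62.3% of the spots on replicates 1, 2 and 3, and red in 63.0%, 56.6% and 61.0%. Of 30367 probes, 18355 (60.4%) could be given a symbol through RefSeq, and all 14179 tested genes entered the Benjamini-Hochberg adjustment, 8908 of them with a symbol and the rest under the systematic name given on the array. Each ratio pairs the colours of the same array. Levels were scaled between arrays after loess (Aquantile). In simulated arrays, 68.0% of genes changed by a log2 ratio of 1 and 29.0% of those changed by 0.50 were recovered, of 200 changed genes, and 4 unchanged genes were called.

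The lysosomal genes and the related and marker lists were chosen with earlier results of these data known. Every lysosomal gene is accounted for, those called with each array, and of each related list the called genes with up to 3 largest rises and 3 largest falls are named. For marker lists the rule names the gene with the brightest probe. Further marker genes, the regulators and the remaining genes in the plot of called related genes were picked with their values in view. The genes in the plot of both channels were picked from the called lysosomal genes. The values of 1 related gene that was called are not reported here, and it is kept in the counts. The comparison with equally bright genes (4 equal groups by intensity) was added after the data were seen. A probe not well above background in 1 colour on any array is given as a bound. Alternatives changed the background correction, dye normalization, filter, probe choice, variance model, test, pairing and replicates.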

Additional observations from a re-analysis of the deposited data

How the results depend on the processing

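The medians of the 3 lysosomal classes stayed above 0 and above the median of all genes in all 15 alternatives, and the V-ATPase median stayed the highest. Robust and trended variance, both t-tests and the separate channels change only the test, so the medians could not move there. Of the 38 lysosomal genes, 37 of 37 tested and 38 of 38 kept their direction and their side of the threshold with both colours above background and with no filter on dim probes. With the mean of all probes 37 did, with no background correction 36, with robust and trended variance 35, with offset 0 and with the authors' log ratio 32 each. With separate channels 31 did, without replicate 2, 1 or 3 it was 30, 29 and 23, with either t-test 21, with median centring 16 and with no dye normalization 14, and 9 reversed in each of the last 2. The slide as a block was left out, since 1 slide held the 3 arrays. Dim probes limit small ratios, since 56.6% to 63.0% of spots per colour and array were well above background, and 3 arrays limit every test. The cause of the changes listed here was not tested.

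Genes called in all (5316, 1638 of them higher): 4990 higher with median centring; 8314, 8010 higher, with no dye normalization; 353, 63 higher, with the methods' t-test; 2, 0 higher, with the t-test of the 3 log ratios (4475 unadjusted); 1611 to 4965, 182 to 1616 higher, leaving out 1 replicate. Lysosomal genes called (17, with 13 higher and 4 lower): 28 higher and 0 lower with median centring; 33 higher and 0 lower with no dye normalization; 2 lower with the authors' log ratio; 0 higher and 0 lower with either t-test (10 and 9 unadjusted); 2 to 17, with 2 to 15 higher and 0 to 4 lower, leaving out 1 replicate. Related genes called (23): 39 with median centring, 60 with no dye normalization, 36 with robust and trended variance, 3 with the methods' t-test, 0 with the t-test of the log ratios, and 5 to 23 leaving out 1 replicate.

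The pairing by array was dropped in a fit of separate channels with no replicate block, in which 1035 genes were higher, 10 lysosomal genes were called (6 higher) and 12 related genes were called.

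Medians with median centring and with no dye normalization: 0.745 and 1.095 for all lysosomal genes, 0.63 and 0.99 for hydrolases, 0.72 and 1.07 for membrane and export genes, 0.90 and 1.25 for the V-ATPase. With the authors' log ratio the hydrolases had 0.18, the membrane and export genes 0.099 and the V-ATPase 0.52. Leaving out 1 replicate, the hydrolase median was 0.052 to 0.20. The median of all lysosomal genes was 0.20 without replicate 2 and 0.21 with offset 0. That of the membrane and export genes was 0.085 with no filter on dim probes and 0.028 with no background correction.

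Signs that turned with median centring and with no dye normalization: Ctsc 0.29 and 0.64, Psap 0.12 and 0.47, Lipa 0.54 and 0.89, Npc1 0.31 and 0.66, Npc2 0.32 and 0.67, Atp6v1a 0.52 and 0.87, Atp6v1c1 0.51 and 0.86, Atp6v1e1 0.094 and 0.44, Gabarapl1 0.39 and 0.74, Uvrag 0.041 and 0.39, Ulk1 0.44 and 0.79, Gga1 0.21 and 0.56, Man2b1 0.21 and 0.56, Dnase2 0.22 and 0.57, Acp5 0.28 and 0.63. Of these 15 genes, 14 lay below the median of equally bright genes with both scalings, and Atp6v1a lay above it. With no dye normalization only: Tfeb 0.075, Tcirg1 0.16, Atp6v0a1 0.23. With median centring only: Ctsz -0.097. With offset 0: Ctsz -0.018 and Mcoln1 -0.0021. With no background correction: Mcoln1 -0.020. With the authors' log ratio: Atp6v1a 0.082. Leaving out 1 replicate: Ctsz -0.038 to 0.081, Ppt1 -0.016 to 0.16, Mcoln1 -0.048 to 0.033.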

Other observations

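Marker lists of other kidney cells gave these values with loess, and their part in the lysosomal result was not tested. Of all genes, 11.6% were called higher and 25.9% lower, and 6962 of 14179 had an unadjusted p under 0.05 in limma. Thick ascending limb markers (5 of 5 tested) had 2 genes higher, a median of 0.099 and Umod, the uromodulin gene, as the gene with the brightest probe (0.87). Their summed intensity was 36753, 39364 and 39569 in control and 61243, 60138 and 60685 in G200. Umod alone had 25876.5, 28840.5 and 29610.3 in control and 51057.1, 50443.2 and 52444.2 in G200. Slc12a1, the only one of the 5 with a negative mean, had ratios of -0.11, -0.13 and -0.31. Principal cell markers (5 of 5) had 0 called in limma after adjustment and 3 unadjusted, a median of 0.17 and Aqp2 as the gene with the brightest probe (-0.30), the only one of the 5 with a negative mean. Their sums were 27977, 25306 and 26455 in control and 22607, 25022 and 19145 in G200. Podocyte markers (5 of 5) had 1 higher, a median of 0.36 (0.72, 0.059 and 0.24 on replicates 1, 2 and 3) and Podxl as the gene with the brightest probe. Their sums were 1331, 1324 and 1288 in control and 2164, 1416 and 1540 in G200. Endothelial markers (4 of 5) had 1 lower, a median of -0.10 and Kdr as the gene with the brightest probe. Their sums were 3984, 3509 and 3631 in control and 4055, 3041 and 2935 in G200. Tek was not well above background. Of the distal convoluted tubule markers Trpm6 had no probe, Pvalb was not well above background and 1 of 3 was tested, Slc12a3, which was not called (0.34), with levels of 397, 227 and 258 in control and 930, 226 and 224 in G200.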
